A study of Mus musculus with 6 samples.

Results

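The neutrophil granule genes described here are 10 in number, Mpo, Elane, Prtn3 and Ctsg (primary granule), Fcnb, Ngp, Camp and Lcn2 (secondary granule), and S100a8 and S100a9 (late granule or cytosol). They were chosen by gene name out of 41709 listed genes, with earlier results of these data known. All 10 passed the low-count filter that left 18427 genes. Fcnb was placed with the secondary group by its position in the list, and its message is also found at the promyelocyte and myelocyte stages in mouse. Total RNA came from posterior nasal septum of mice, its bone included, that had eaten either a zinc-sufficient (control) or a zinc-deficient diet from week 4 to week 8 of life. Each diet had 3 libraries, numbered 4, 5 and 6, and neither strain nor sex of the mice is given in the labels used here. Whether every library is a mouse of its own is not stated, so p-values reflect only library-to-library spread, part of which may be technical. The libraries held 11731999 to 18727863 counts in genes, and 3 counts corresponded to between 0.157 and 0.239 CPM, the count scaled to the TMM-adjusted library size. In such whole tissue, a larger number of granule-making cells and more message per cell cannot be told apart.

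Neutrophil granules are filled one kind after another while the cell matures in bone marrow, and the genes for their contents are switched on in the same sequence. Promyelocytes transcribe the genes of primary (azurophil) granules, myelocytes and metamyelocytes those of secondary (specific) granules, and later stages make the calcium-binding proteins of the cytosol and continue with S100a8 and S100a9 messages. Circulating neutrophils have largely stopped making the primary granule messages, so these mark immature cells. The products include serine proteases, peroxidase, antimicrobial peptides and calprotectin, the S100a8 and S100a9 complex that binds zinc.

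The 10 genes lie on 6 chromosomes, several of them as neighbours. By the deposited coordinates, for which no build is named in the sources used here, Prtn3 (chromosome 10, 79710310 to 79719008) ends 3072 bp before Elane (79722081 to 79724049) on the plus strand. S100a8 (chromosome 3, 90576285 to 90577342, plus strand) and S100a9 (90599939 to 90603028, minus strand) are 22596 bp apart. Camp (chromosome 9, 109676447 to 109678685, minus strand) and Ngp (110248815 to 110252080, plus strand) are 570129 bp apart. The others are Mpo (chromosome 11, 87684407 to 87695239, plus strand), Ctsg (chromosome 14, 56337338 to 56340031, minus strand), Fcnb (chromosome 2, 27966390 to 27974897, minus strand) and Lcn2 (chromosome 2, 32274645 to 32278264, minus strand). Of the 10, 8 shared no bases with another listed gene. Prtn3 shares 159 bp with Plppr3, a gene for a membrane protein of neurons, and Mpo lies across Gm11505, which had 15 counts in all libraries together.

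The 250 bases before the start of transcription are shown for all 4 primary genes and for the secondary genes Fcnb and Ngp. These genes were picked after the matches were seen: the primary genes held the letters GAGGAA only, and Fcnb and Ngp TTGCNNAA only. The secondary genes not shown did not follow this, since Camp held neither and Lcn2 held both. GAGGAA was searched as a core that PU.1 (product of Spi1) binds and TTGCNNAA as a core that C/EBP factors bind, both strands were read, and no match of one overlapped a match of the other. The sequences and their coordinates are those of RefSeq on GRCm38.p6, each printed 5′ to 3′ on the strand of its gene, and capitals mark the matches. These coordinates do not match the deposited ones: Elane starts at 79722081 there, while its window here ends at 79886311. Distances between the 2 sets therefore have no meaning. The windows are chr11:87793534-87793783 (plus) for Mpo, chr10:79886062-79886311 (plus) for Elane, chr10:79879417-79879666 (plus) for Prtn3, chr14:56102575-56102824 (minus) for Ctsg, chr2:28084879-28085128 (minus) for Fcnb and chr9:110419558-110419807 (plus) for Ngp.
Mpo: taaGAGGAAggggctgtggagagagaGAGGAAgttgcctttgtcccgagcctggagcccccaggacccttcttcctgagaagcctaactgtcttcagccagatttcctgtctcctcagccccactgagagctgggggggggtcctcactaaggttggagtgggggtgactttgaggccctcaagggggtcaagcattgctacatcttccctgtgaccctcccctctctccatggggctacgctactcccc
Elane: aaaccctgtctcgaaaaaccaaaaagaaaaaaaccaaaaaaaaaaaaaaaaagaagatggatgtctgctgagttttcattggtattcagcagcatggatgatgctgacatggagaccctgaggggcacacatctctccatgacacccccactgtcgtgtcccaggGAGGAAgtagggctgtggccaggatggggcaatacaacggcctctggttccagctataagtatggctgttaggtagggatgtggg
Prtn3: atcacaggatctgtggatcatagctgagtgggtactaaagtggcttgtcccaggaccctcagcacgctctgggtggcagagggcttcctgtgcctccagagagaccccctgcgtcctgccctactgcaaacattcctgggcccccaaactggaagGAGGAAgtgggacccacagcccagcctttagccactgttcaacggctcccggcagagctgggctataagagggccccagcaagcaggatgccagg
Ctsg: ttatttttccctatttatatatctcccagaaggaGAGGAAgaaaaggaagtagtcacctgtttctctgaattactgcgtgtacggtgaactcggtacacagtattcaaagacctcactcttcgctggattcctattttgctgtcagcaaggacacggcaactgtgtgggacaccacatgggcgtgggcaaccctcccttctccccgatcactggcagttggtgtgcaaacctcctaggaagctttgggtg
Fcnb: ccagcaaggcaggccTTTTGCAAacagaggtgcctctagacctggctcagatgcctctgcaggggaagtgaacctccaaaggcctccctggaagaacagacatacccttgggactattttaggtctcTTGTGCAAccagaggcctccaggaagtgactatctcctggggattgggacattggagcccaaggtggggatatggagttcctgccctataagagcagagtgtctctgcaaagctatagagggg
Ngp: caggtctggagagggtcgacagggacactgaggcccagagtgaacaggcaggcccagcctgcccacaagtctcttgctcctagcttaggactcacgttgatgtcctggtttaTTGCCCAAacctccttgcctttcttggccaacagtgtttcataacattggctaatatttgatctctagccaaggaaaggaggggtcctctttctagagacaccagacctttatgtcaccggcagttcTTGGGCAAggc

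GAGGAA was present before all 4 primary genes, where matches began 247 and 224 bases before the start in Mpo, 85 in Elane, 95 in Prtn3 and 216 in Ctsg. It was absent from this window of Fcnb, Ngp, Camp and S100a9, and present before Lcn2 and S100a8. TTGCNNAA was present before Fcnb (235 and 123 bases before the start), Ngp (138 and 11), Lcn2 (216) and S100a9 (236), and before no primary gene. Camp held neither, and Lcn2 was the 1 gene of the 10 that held both. Among 32851 mouse promoters of this length, 23.3% held GAGGAA, 9.56% held TTGCNNAA and 2.07% held both, so 6 of 10 and 4 of 10 describe these genes only. A match of letters is not a bound site, and no binding was measured. Only these exact letters were searched, so a window without a match may still hold a site of other letters.

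The primary granule genes had the widest distance between the diets. All 4 had every zinc-deficient library above every control library, as did 9.56% of all genes tested. Their mean CPM was 3.87 to 4.87 times that of the controls. In edgeR's quasi-likelihood test over 18427 genes, none of the 4 passed the adjusted p of 0.05, and control 4, 5 and 6 stood far apart from each other. The lowest zinc-deficient library exceeded the highest control library by 2.00 times in Prtn3, 1.83 in Elane, 1.72 in Mpo and 1.67 in Ctsg.

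Mpo (ENSMUSG00000009350) encodes myeloperoxidase, the heme enzyme that makes hypochlorous acid. Its counts were 286, 84 and 20 in control 4, 5 and 6 and 619, 925 and 730 in zinc-deficient 4, 5 and 6, or 22.2, 6.68 and 1.31 CPM against 45.6, 53.5 and 38.2 CPM. The controls spanned 17.0-fold and the zinc-deficient libraries 1.40-fold, and the ranges did not meet. The fitted difference was a log2 fold change of 2.20 (SE 0.96, n = 3 per diet), with an edgeR adjusted p of 0.446.

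Elane (ENSMUSG00000020125) encodes neutrophil elastase, a serine protease. Elane had 95, 46 and 8 counts in the controls and 220, 261 and 258 in the zinc-deficient libraries, which is 7.39, 3.66 and 0.523 CPM against 16.2, 15.1 and 13.5 CPM. The zinc-deficient libraries lay within 1.20-fold of each other, the tightest spread of the 10 genes. On the log2 scale the diets differed by 1.97 (SE 0.73), with an edgeR adjusted p of 0.351.

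Prtn3 (ENSMUSG00000057729) encodes proteinase 3, a relative of elastase whose gene adjoins Elane. Prtn3 had 81, 38 and 28 counts against 172, 329 and 241, or 6.30, 3.02 and 1.83 CPM against 12.7, 19.0 and 12.6 CPM. Its controls spanned 3.44-fold, the least among the primary genes. The log2 fold change was 2.00 (SE 0.39), and the edgeR adjusted p of 0.0960 was the smallest of the 10. Prtn3 was also the only one of the 10 to pass in other fits, with DESeq2 (adjusted p = 3.54e-05), with edgeR's likelihood ratio test (adjusted p = 0.000429), and in edgeR's quasi-likelihood test with the replicate number as a block (adjusted p = 0.0133), without a low-count filter (0.0301) or without control 4 (0.0154).

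Prtn3 is less certain than its neighbour because of the 159 bp shared with Plppr3, which lies on the other strand, and the sources used here give no strand setting for the counting. Plppr3 had 566, 617 and 704 counts in the controls and 937, 956 and 1031 in the zinc-deficient libraries, a difference of 0.36 on the log2 scale (SE 0.14, adjusted p = 0.324 with edgeR). Prtn3 counts per Elane count were 0.853, 0.826 and 3.50 in the controls and 0.782, 1.26 and 0.934 in the zinc-deficient libraries. Control 6, where Elane had only 8 counts, is the library in which this ratio stands apart. How many Prtn3 counts came from Plppr3 reads was not tested.

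Ctsg (ENSMUSG00000040314) encodes cathepsin G, another serine protease, and with Fcnb had the lowest deposited RPKM of the set in both diets. It had 31, 10 and 0 counts in the controls and 60, 124 and 77 in the zinc-deficient libraries, so that control 6 lay under the level of 3 counts. In CPM these were 2.41, 0.795 and 0 against 4.42, 7.17 and 4.03. The log2 fold change of 2.31 (SE 0.91) was the largest of the 10, with an edgeR adjusted p of 0.355.

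The secondary granule genes had smaller differences and less separation. Ngp and Camp kept the diets apart, by 1.24 and 1.12 times between the nearest libraries, whereas Fcnb and Lcn2 did not. None of the 4 passed edgeR's test over all genes.

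Ngp (ENSMUSG00000032484), neutrophilic granule protein, a cathelicidin-related protein, had the highest deposited RPKM of the 10 in the zinc-deficient libraries. It had 1056, 294 and 33 counts in the controls and 1384, 2954 and 2008 in the zinc-deficient libraries, or 82.1, 23.4 and 2.16 CPM against 102, 171 and 105 CPM. Its 38.0-fold span among the controls was the widest of the 8 genes with counts in every library. Its log2 fold change was 1.82 (SE 1.22), with an edgeR adjusted p of 0.610.

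Camp (ENSMUSG00000038357) encodes cathelicidin, the precursor of an antimicrobial peptide. Camp had 347, 108 and 24 counts against 693, 625 and 579, or 27.0, 8.59 and 1.57 CPM against 51.0, 36.1 and 30.3 CPM. The lowest zinc-deficient library was only just above control 4. Its log2 fold change was 1.67 (SE 0.99), with an edgeR adjusted p of 0.558.

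Fcnb (ENSMUSG00000026835) encodes ficolin B, a lectin that binds microbial sugars. Fcnb had 34, 8 and 0 counts against 58, 56 and 50, or 2.64, 0.636 and 0 CPM against 4.27, 3.24 and 2.62 CPM. Control 4 and zinc-deficient 6 were level, at a ratio of 1.01, so the ranges touched. For Fcnb the log2 fold change was 1.64 (SE 0.95), with an edgeR adjusted p of 0.511.

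Lcn2 (ENSMUSG00000026822) encodes lipocalin 2, which takes iron-loaded siderophores from bacteria and is also made by epithelia. Lcn2 had 523, 203 and 432 counts in the controls and 566, 1051 and 747 in the zinc-deficient libraries, or 40.7, 16.1 and 28.3 CPM against 41.7, 60.7 and 39.1 CPM. Unlike the other 9 genes, it was not lowest in control 6. The diets overlapped, and the log2 fold change was 0.73 (SE 0.31) with an edgeR adjusted p of 0.374.

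The late genes S100a8 and S100a9 had no separation of the diets. S100a8 (ENSMUSG00000056054) had 416, 88 and 14 counts in the controls and 176, 577 and 368 in the zinc-deficient libraries, or 32.4, 7.00 and 0.916 CPM against 12.96, 33.3 and 19.3 CPM. Control 4 stood at 2.50 times the lowest zinc-deficient library. The log2 fold change was 0.72 (SE 1.22), the smallest of the 10, with an edgeR adjusted p of 0.854. S100a9 (ENSMUSG00000056071) had 496, 151 and 28 counts against 347, 992 and 855, or 38.6, 12.0 and 1.83 CPM against 25.6, 57.3 and 44.8 CPM. Control 4 was again above zinc-deficient 4, by 1.51 times, and the log2 fold change was 1.30 (SE 1.08) with an edgeR adjusted p of 0.681. The proteins form 1 complex, and the S100a9 count per S100a8 count was 1.19, 1.72 and 2.00 in the controls and 1.97, 1.72 and 2.32 in the zinc-deficient libraries.

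**Figure D1:**
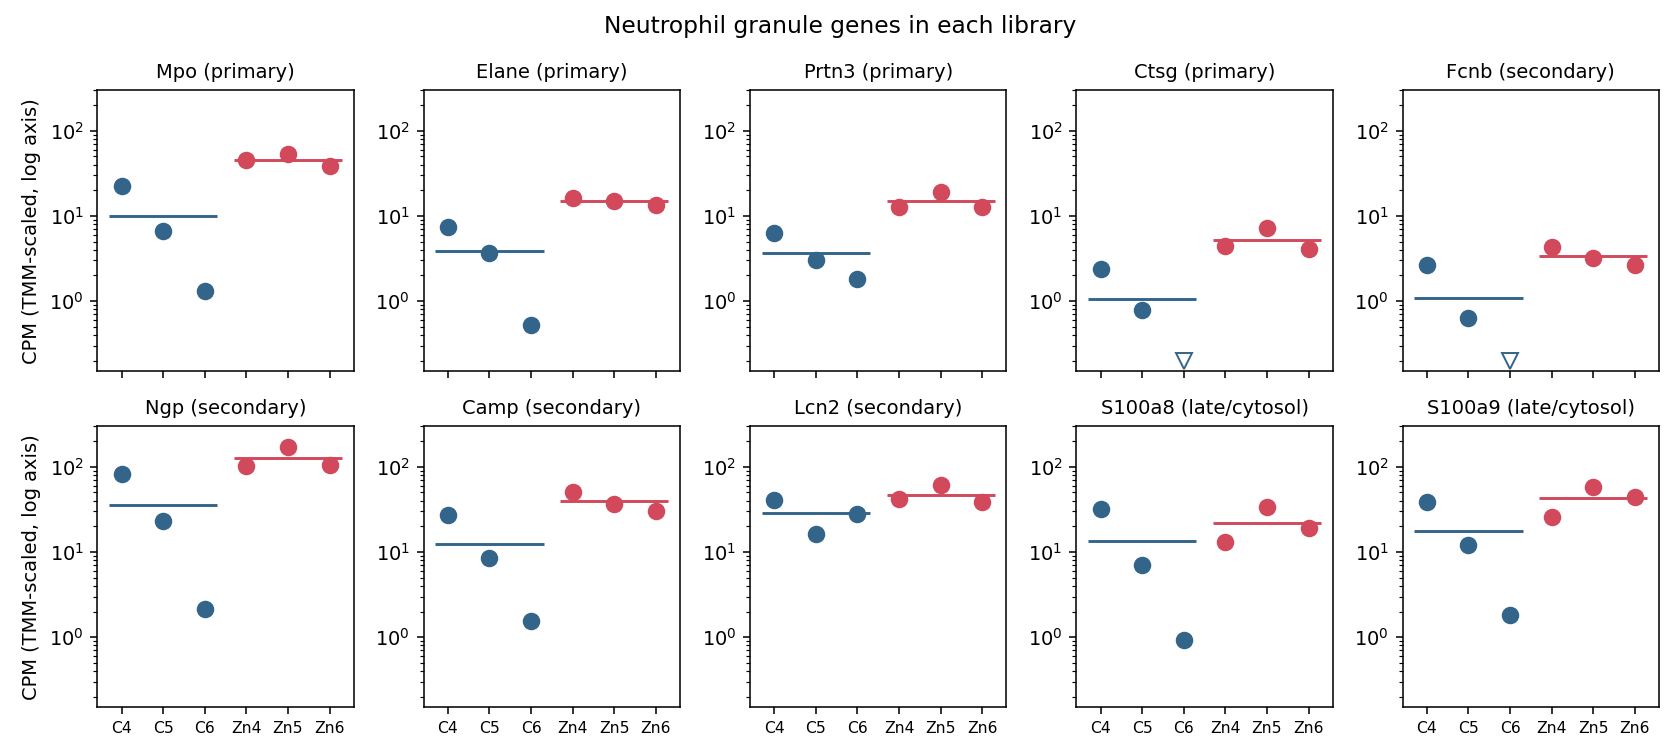
CPM (TMM-scaled, log axis) of the 10 genes in control libraries C4 to C6 and zinc-deficient libraries Zn4 to Zn6, with the mean of each diet as a line and open triangles for libraries with 0 counts. Mpo, Elane, Prtn3, Ctsg, Ngp and Camp keep the diets apart, and control 6 is lowest for every gene but Lcn2.

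Counted together, all 10 genes had a positive log2 fold change, as did 49.7% of all genes tested, and 6 of 10 had separate CPM ranges with the zinc-deficient libraries higher, as did 9.56%. The 10 fold changes had a median of 1.74, from 0.72 to 2.31, against −0.0021 over all genes tested. By edgeR's quasi-likelihood test 0 of 10 passed the adjusted p of 0.05, while 0.0868% of all genes passed and were higher. At an unadjusted p under 0.05 the number was 4 of 10 (Elane, Prtn3, Ctsg and Lcn2), beside 6.4% of all genes that were so and higher. DESeq2 called 1 of 10 (1.21% of genes called higher), edgeR's likelihood ratio test 1 (0.847%) and limma-voom 0 (0.0163%). The quasi-likelihood test called 1 of 10 with the replicate block (0.45%), 1 without a low-count filter (0.372%) and 1 without control 4 (0.236%), in each case Prtn3. Without control 4, all 10 ranges were separate (13.4% of genes), without zinc-deficient 6 the number was 8 (13.3%), and without zinc-deficient 4 it was 7 (16.6%).

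The authors' deposited table gave nearly the same log2 fold changes and smaller adjusted p-values. Of the 10 genes, 5 had an FDR of at most 0.05 in the authors' deposited table, namely Prtn3 (7.81e-06), Mpo (0.00186), Elane (0.00370), Ctsg (0.0162) and Camp (0.0459), beside 1.12% of its genes with a value that were higher at that level. Its FDR was 0.0705 for Ngp, 0.127 for Lcn2, 0.250 for S100a9, 0.264 for Fcnb and 0.738 for S100a8 in the authors' deposited table. Which test gave these values is not stated in the sources used here.

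Ordered by stage, the median log2 fold change was 2.10 for the primary genes, 1.65 for the secondary genes and 1.01 for S100a8 and S100a9. This order of medians describes 4, 4 and 2 genes and was not tested. Lists of other genes of these stages did not keep it, with medians of 1.42 (promyelocyte), 0.77 (secondary granule) and 1.09 (later neutrophil). In the granule genes the order was the same in 16 of 17 other ways of analysing the counts or RPKM. These 16 included all 6 that left out a library. With limma on log2(RPKM + 1) the medians were 1.62, 1.46 and 1.69. Left-out libraries moved the values far more than the order: without control 4 the late pair had a median of 2.58 and without control 6 it had 0.46.

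**Figure D2:**
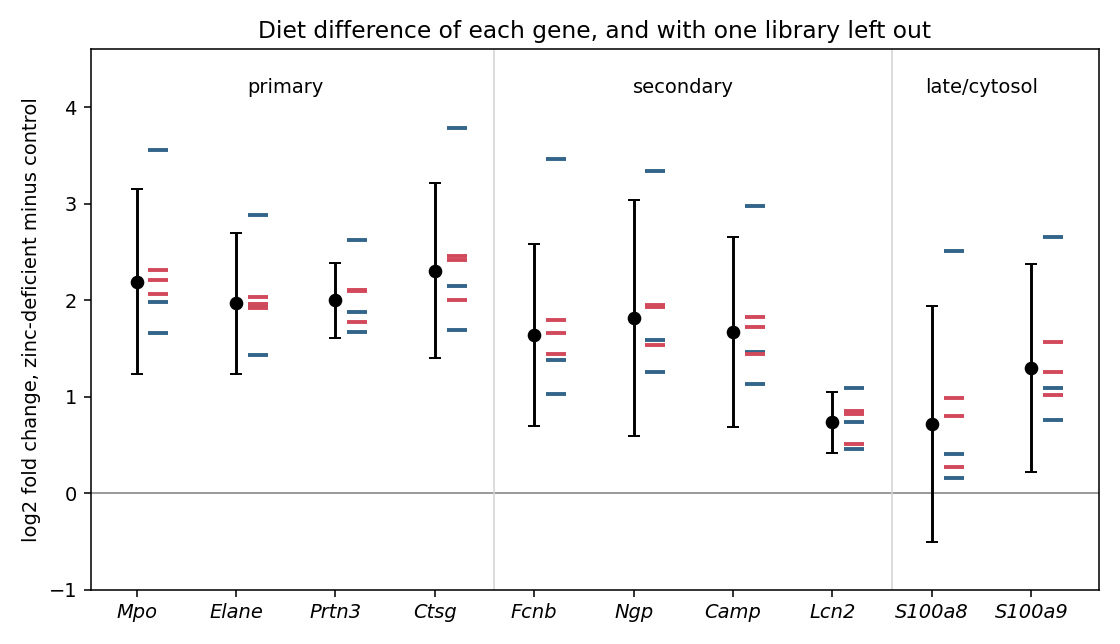
Log2 fold change (zinc-deficient minus control) of each of the 10 genes by stage, with black points and bars for the fitted value and its standard error and short marks for the value with 1 library left out (blue for a control library, red for a zinc-deficient one). For every gene the highest mark, at 1.09 for Lcn2 and up to 3.78 for Ctsg, is the one without control 4.

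Primary genes summed to 38.3, 14.2 and 3.66 CPM in the controls and 78.9, 94.7 and 68.4 CPM in the zinc-deficient libraries. Secondary genes summed to 152, 48.7 and 32.0 against 199, 271 and 177 CPM, and the late pair to 70.9, 19.0 and 2.75 against 38.5, 90.7 and 64.1 CPM. The primary and the secondary sums were apart between diets, and the late sums overlapped.

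Ratios of counts within a library do not depend on the scaling between libraries. The secondary genes gave 3.98, 3.44 and 8.73 counts per primary gene count in the controls and 2.52, 2.86 and 2.59 in the zinc-deficient libraries, so every control was higher. This separation rested on Lcn2. In control 6, Lcn2 made up 73.6% of the counts of all 10 genes, against 15.5% and 19.7% in control 4 and 5 and 12.6% to 13.3% in the zinc-deficient libraries. Without Lcn2 the ratio was 2.91, 2.30 and 1.02 in the controls and 1.99, 2.22 and 2.02 in the zinc-deficient libraries, and the ranges overlapped. On the log2 CPM scale the mean of the secondary genes exceeded that of the primary genes by 1.46 ± 0.18 in the controls and 0.97 ± 0.13 in the zinc-deficient libraries (SD, n = 3), a difference of −0.49 that became −0.055 without Lcn2.

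The late pair gave 1.85, 1.34 and 0.750 counts per primary gene count in the controls and 0.488, 0.957 and 0.936 in the zinc-deficient libraries. Control 4 and 5 were the highest, and control 6 lay among the zinc-deficient libraries. Within the primary genes, Mpo counts per Elane count were 3.01, 1.83 and 2.50 against 2.81, 3.54 and 2.83, with overlapping ranges. Lcn2 counts per Ngp count were 0.495, 0.690 and 13.1 against 0.409, 0.356 and 0.372.

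**Figure D3:**
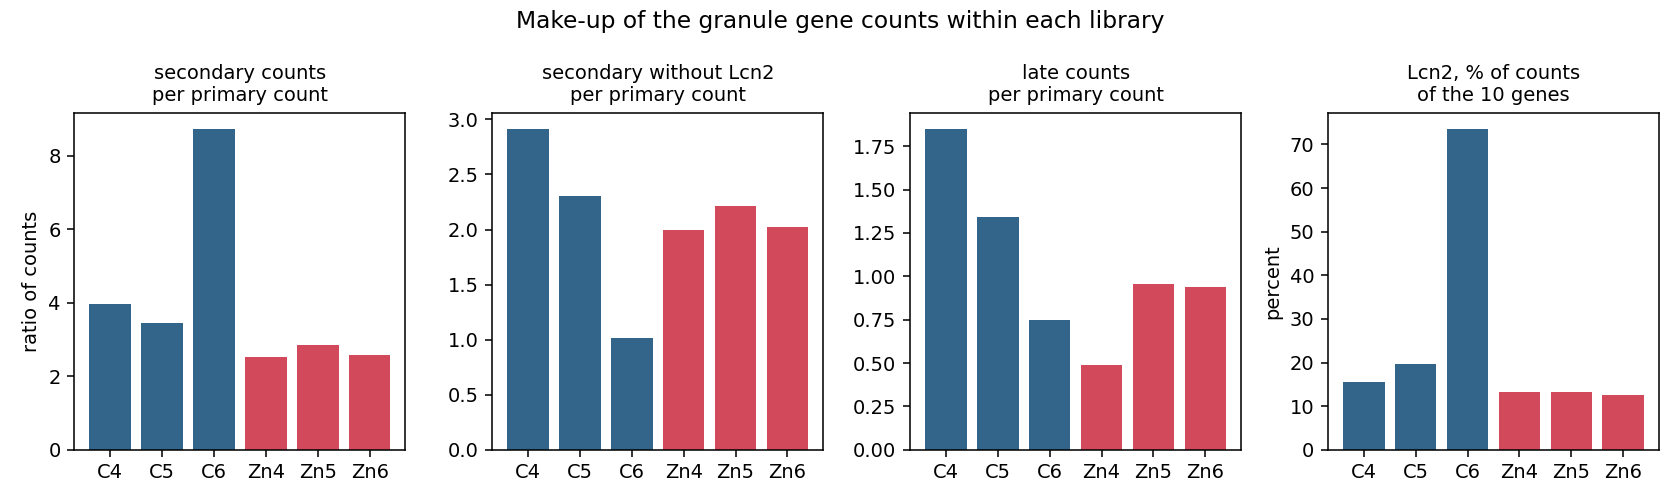
Counts of secondary genes, of secondary genes without Lcn2 and of S100a8 plus S100a9, each per count of the 4 primary genes, and Lcn2 as a percentage of the counts of all 10 genes, in control (C4 to C6) and zinc-deficient (Zn4 to Zn6) libraries. Control 6 stands at 8.73 in the first panel and at 1.02 once Lcn2 is left out, and at 73.6% in the last.

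Between genes, levels were compared as the deposited RPKM, which takes gene length into account. In the controls S100a9 had 16.1 ± 17.9 RPKM, Ngp 14.2 ± 16.7, S100a8 9.36 ± 11.8 and Camp 7.87 ± 8.55 (SD, n = 3), followed by Lcn2, Elane, Mpo, Prtn3, Ctsg and Fcnb. In the zinc-deficient libraries Ngp led with 53.4 ± 18.1 RPKM, then S100a9 with 42.6 ± 17.7, Camp with 26.3 ± 5.26 and S100a8 with 16.4 ± 8.35, and the other 6 had the same order as in the controls. The means of the first 4 in the controls lay within each other's SDs, which are spreads between libraries. Within each control library S100a9 was the highest of these 4, at 36.2, 10.5 and 1.69 RPKM in control 4, 5 and 6. The order of the others varied by library. Primary genes made up 7.66% to 10.4% of the summed RPKM of the 10 in the controls and 11.6% to 14.8% in the zinc-deficient libraries, so these shares did not overlap. This separation also rested on Lcn2, which had 5.18 of the 10.3 summed RPKM in control 6.

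The libraries of a diet kept much the same order over the genes. Control 4 was above control 5 and control 5 above control 6 in 9 of 10 genes, all but Lcn2. Zinc-deficient 5 was the highest of its diet in 7 of 10, and zinc-deficient 4 in Elane, Fcnb and Camp. The 10 genes together took 0.0258%, 0.00878% and 0.00350% of the counts in the controls and 0.0298%, 0.0488% and 0.0316% in the zinc-deficient libraries.

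Likeness of profile was measured as the root-mean-square difference of log2 CPM over the 6 libraries, each gene centred on its own mean. Among the 10, Fcnb and Camp were the most alike at 0.12, followed by Mpo and Ctsg at 0.21 and Elane and Camp at 0.25. S100a8 and S100a9 stood at 0.29. Lcn2 lay at 0.79 from Prtn3 and at 1.37 to 1.81 from the other 8 genes. Of 17276 other genes, those near to Elane included Ctse (0.31), F730016J06Rik (0.35) and Cldn13 (0.41). The nearest to Ngp were Retnlg (0.41), Mmp8 (0.42), neutrophil collagenase, Prg2 (0.47), an eosinophil granule protein gene, and Rag1 (0.55). The nearest to S100a8 were Rag1 (0.38), Mmp8 (0.44), Prss34 (0.48) and Slfn4 (0.52). These genes share libraries and depth with the 10, and the distances are descriptive.

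Other genes of the same stages were read from lists, and none of their tested genes passed edgeR's test. Of 6 further promyelocyte genes, all 6 had positive log2 fold changes (49.7% of all genes), and 2 had separate, higher ranges (9.56%). The median of the list was 1.42. The most abundant were Serpinb1a, an inhibitor of neutrophil serine proteases, at 0.55, and Plac8, with 68, 45 and 32 counts against 122, 132 and 132 and a difference of 1.11 on the log2 scale (SE 0.33, adjusted p = 0.218 with edgeR). Ms4a3, with 16, 0 and 2 counts against 16, 61 and 36, and Prss57, with 16, 4 and 5 against 23, 44 and 32, are further promyelocyte markers.

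Other secondary granule genes were mixed. Of 14, 11 were tested, with 6 log2 fold changes above 0, 5 below 0 and a median of 0.77. Ltf, lactoferrin, had 20400, 4308 and 36668 counts in the controls and 9002, 4877 and 22856 in the zinc-deficient libraries, which is −1.01 on the log2 scale (SE 0.92, adjusted p = 0.703 with edgeR). Lyz2, a lysozyme gene of myeloid cells, had −0.55. Ltf, Lyz2, Pglyrp1 (−1.08), Cd177 (−0.83) and Anxa1 (−0.35), the 5 below 0, had their highest count in control 6, the library where 9 of the 10 granule genes were lowest. Mmp8 (102, 28 and 4 counts against 91, 253 and 234) had 1.71 and Chil3 (180, 81 and 37 against 184, 579 and 411) had 1.60. Bpi had 0 counts in every library.

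Nasal gland genes, the list of another source for secretory proteins such as Ltf, had 3 of 7 log2 fold changes above 0 and a median of −0.08. Their summed CPM was 8840, 5457 and 11574 in the controls and 5819, 6527 and 8369 in the zinc-deficient libraries, highest in control 6. Muc5b, a gel-forming mucin, had a log2 fold change of −0.08 and Bpifa1, a secreted airway protein, had 0.08. Both signs turned when single libraries were left out, and that of Muc5b also with RPKM. The part of gland or epithelial RNA in Lcn2 and Ltf was not tested.

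Genes of later neutrophils had a median log2 fold change of 1.09, with 16 above 0 and 2 below 0 among 18 tested of 23. Their CPM ranges were separate and higher in 9, beside 9.56% of all genes, and separate and lower in 1, beside 9.31%. Ly6g, the defining mouse neutrophil surface marker, had 12, 1 and 0 counts against 24, 23 and 36 and a difference of 2.31 on the log2 scale (SE 0.89, adjusted p = 0.322 with edgeR). The most abundant were Mmp9, gelatinase B, at 0.08 and Mxd1 at 0.11, and the sign of Mmp9 turned without control 5. In control 6, where Ly6g had 0 counts, Mmp9 had 947 and Mxd1 883. Which cells the Mmp9 and Mxd1 counts came from was not tested. Cxcr2, a chemokine receptor, had 1.36 and Padi4, the histone-citrullinating enzyme, 1.38, while the cytokine gene Il1b had −1.31.

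Among 9 factors of granulocyte development, 8 had positive log2 fold changes with a median of 0.33, and none passed. Cebpe, which drives secondary granule genes, had 40, 6 and 4 counts against 79, 67 and 60 and a difference of 1.74 on the log2 scale (SE 0.74, adjusted p = 0.366 with edgeR). Gfi1 had 1.17 and Spi1, the PU.1 gene, 0.89. The most abundant, Runx1 at −0.29 and Cebpb at 0.09, are transcribed in many cell types, and the sign of Cebpb turned when single libraries were left out. All 6 genes of the phagocyte NADPH oxidase were above 0, with a median of 0.88, 4 of them with separate, higher ranges (9.56% of all genes). Of these, Ncf1 had 1.04, which passed without control 4 (1.55, adjusted p = 0.0366 with edgeR) and with DESeq2 (adjusted p = 0.0349).

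Genes that hold neutrophils in marrow or release them had 4 of 4 tested above 0, of 7 listed, and a median of 0.38. Cxcl12, the retention chemokine, had 0.27 and its receptor Cxcr4 0.87 (edgeR adjusted p = 0.181). Csf3, the gene of the granulocyte growth factor, was not tested, with 8, 2 and 2 counts against 13, 28 and 10. Of 8 inhibitors of granule proteases, 7 were tested, 4 above 0 and 3 below, with a median of 0.55. Serpina3n had −0.50 and Serpinb6a −0.30, and Slpi, the secreted inhibitor of elastase, had 50, 42 and 80 counts against 131, 177 and 155, or 1.16 on the log2 scale with an edgeR adjusted p of 0.133. Of the calprotectin receptors, Tlr4 stood at −1.03 on the log2 scale (adjusted p = 0.163 with edgeR) and Ager at 0.47, a sign that turned without zinc-deficient 4.

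**Figure D4:**
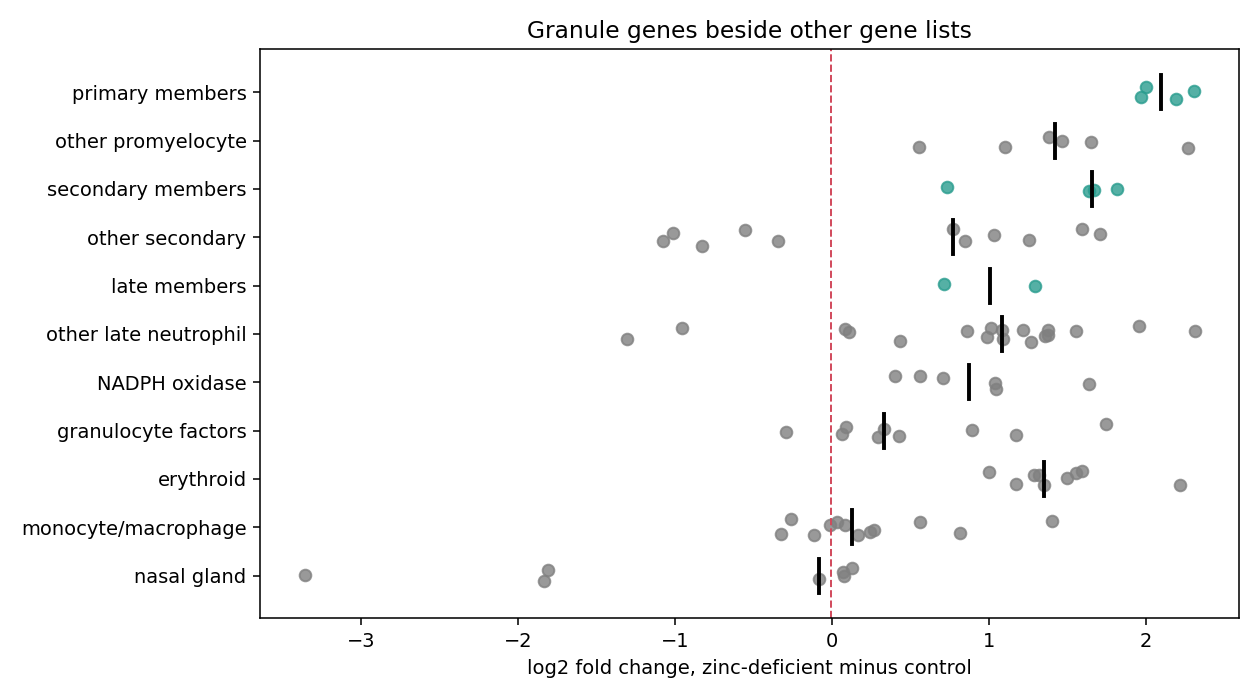
Log2 fold change (zinc-deficient minus control) of each tested gene, as points, in the 10 granule genes by stage (green) and in 8 of the other gene lists (grey), with the median of each list as a black bar. Among the lists drawn, the medians run from 2.10 for the primary granule genes to −0.08 for nasal gland genes, and the other secondary genes lie on both sides of 0. Of the lists not drawn, mast cell, basophil and eosinophil genes (2 tested) had a median of 2.53, above this span. Squamous and basal epithelial genes had −0.87, osteoblast genes −0.82 and the calprotectin receptors (2 tested) −0.28, all below it.

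Markers of other cells in the dissected tissue had medians on both sides of 0, and their part in the granule gene differences was not tested. Erythroid genes had 9 of 9 tested above 0, of 10 listed, with a median of 1.35 and summed CPM of 1799, 570 and 492 against 4238, 1582 and 1502. Hba-a2 had 1.29 and Hbb-bs 1.32, although each has a near-identical copy among which reads may be divided. Without zinc-deficient 4 these were 0.47 and 0.87, and without control 4 they were 2.07 and 2.21, where Hbb-bs passed (adjusted p = 0.0484 with edgeR). With the replicate block both passed, with edgeR adjusted p-values of 0.00271 and 0.00113. Like the granule genes, this list stood higher in control 4 than in control 5 and 6.

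B cell precursor genes had 10 of 10 tested above 0, of 12 listed, a median of 1.73 and summed CPM of 219, 248 and 151 against 211, 310 and 306. Ebf1 alone held most of that sum, with 179, 224 and 135 against 182, 220 and 226 CPM, so the sum mainly follows Ebf1. Igll1, of the surrogate light chain, rose by 4.34 on the log2 scale (SE 0.66, adjusted p = 0.0373 with edgeR), a call that was kept without control 4 and lost without any other single library (edgeR adjusted p from 0.0273 to 0.165) and with limma-voom (0.0706). The most abundant, Ebf1 and Vpreb3, had 0.22 and 0.19. Of 8 mast cell, basophil and eosinophil genes, only Prg2 (2.31) and Epx (2.75) were tested, and the summed CPM was 23.7, 6.12 and 3.27 against 36.0, 53.3 and 68.2. The mast cell gene Cpa3 had 12, 0 and 8 counts against 3, 6 and 3.

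Monocyte and macrophage genes had 8 of 12 above 0, a median of 0.13 and summed CPM of 230, 214 and 264 against 247, 242 and 215, so this myeloid list overlapped between diets. F13a1 had −0.32 and Csf1r −0.01, and the sign of Csf1r turned in several alternatives. Osteoblast genes had 0 of 8 above 0, a median of −0.82 and summed CPM of 13997, 8219 and 11693 against 9411, 4872 and 4398, where Col1a1 had −0.86 and Bglap −1.10. How much bone and marrow entered each library was not measured.

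Olfactory neuron genes had 7 of 7 above 0 with a median of 0.34 and summed CPM of 5701, 6871 and 6070 against 9345, 7640 and 7689 (Omp 0.53, Adcy3 0.34). Squamous and basal epithelial genes had 1 of 4 tested above 0, of 8 listed, with a median of −0.87 and summed CPM of 68.0, 39.9 and 71.6 against 47.7, 42.1 and 51.9 (Krt5 0.08, Krt14 −0.60). The sign of Krt5 turned without control 5. Cycling genes had 6 of 6 above 0 (49.7% of all genes), with a median of 1.04, 5 of them with separate, higher ranges (9.56%), and summed CPM of 124, 77.5 and 45.9 against 148, 177 and 143, where Mki67 had 1.01 and Top2a 0.56. Mki67 had 1.60 without control 4 and 0.61 without control 6.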

How the data were processed

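Ribosome-depleted total RNA was sequenced from 3 libraries per diet, per the labels. The authors deposited 1 table with whole-number counts per gene ("total counts" per the file headers), RPKM, gene coordinates and their own log2 fold changes, p-values and FDR values. No counter, strand setting, aligner, annotation or genome build is named in the sources used here. Of 41633 deposited counts from 1 to 20, 68.4% were even, where 50% would be even if both kinds were equally frequent, so small counts may not be independent reads.

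The main test was edgeR's quasi-likelihood test (version 4.0.16, R 4.3.3) on these counts, robust, after filterByExpr and TMM, with the diet as its single term, two-sided, and Benjamini-Hochberg adjustment over all 18427 genes at 0.05. Printed CPM are counts over the TMM-scaled library size, and standard errors are the absolute log2 fold change divided by the root of the F statistic. The test was tried on simulated data with known changes, in which counts were drawn independently. The simulation did not include the excess of even counts, so it cannot show how the test behaves with it. The exact permutation test of 1 gene with 3 against 3 cannot go below 0.1 and was not used.

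Alternatives were the replicate number as a block, each library left out, median-of-ratios, upper-quartile and column-total scaling, no low-count filter or one of 100 counts, DESeq2 1.42.0, limma-voom (limma 3.58.1), edgeR's likelihood ratio test, and limma on log2(RPKM + 1) and log2(RPKM + 0.1) where either diet had a mean RPKM of 1 or more. Leaving Lcn2 out of the stage gap, and counting separate ranges with a library left out, were added after seeing the data.

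The genes and lists were chosen with earlier results of these data known. The text names the 10 genes, the 2 most abundant members of each list, members that passed, and the 4 genes nearest to Elane, Ngp and S100a8 with a mean of at least 1 CPM (log2 with a prior count of 2), except some that are not reported here. Plppr3, Gm11505, Ms4a3, Prss57, Pglyrp1, Cd177, Anxa1, Mmp8, Chil3, Ly6g, Cxcr2, Padi4, Il1b, Cebpe, Gfi1, Spi1, Slpi, Csf3, Cpa3 and Bpi were named after their values were seen. Replicate pairs of a diet differed beyond sampling noise (chi-square per degree of freedom 20.8 to 59.9), so none was counted as 1 library. Promoter sequences came from RefSeq on GRCm38.p6, in which all 10 genes matched.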

Additional observations from a re-analysis of the deposited data

How the results depend on the processing

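All 10 granule genes kept a positive log2 fold change in 170 of 170 gene and alternative combinations, and the 5 that passed a test were all Prtn3. These combinations draw on the same 6 libraries, so they are not 170 independent checks. The count of all genes called was 22. It was 153 with the replicate block, 172 without a low-count filter, 343 with DESeq2, 265 with edgeR's likelihood ratio test, 6 with limma-voom, 14 with limma on log2(RPKM + 1), 10 on log2(RPKM + 0.1), and 9 to 50 with 1 library left out. The count of granule genes called was 0. It was 1, Prtn3, with the replicate block (adjusted p = 0.0133 with edgeR, beside 0.45% of genes called higher), without a filter (0.0301, 0.372%), with DESeq2 and with the likelihood ratio test, and 0 to 1 with 1 library left out, the 1 being Prtn3 without control 4 (adjusted p = 0.0154 with edgeR, 0.236%). The replicate numbers did not pair the libraries: the correlation of deviations from the diet means was −0.048, 0.15 and 0.068 for number 4, 5 and 6, and of the 3 controls only control 5 correlated best with its own number. With 1 library left out, the median log2 fold change ranged from 1.20 to 2.93 for all 10, 1.67 to 3.22 for primary, 1.08 to 3.16 for secondary and 0.46 to 2.58 for late genes, with each highest value found without control 4. The number with separate ranges went from 6 to between 6 and 10, with 10 without control 4 (13.4% of genes), 8 without zinc-deficient 6 (13.3%) and 7 without zinc-deficient 4 (16.6%). The difference in the gap between secondary and primary genes went from −0.49 to −0.055 without Lcn2, an alternative added after seeing the data. Signs turned for 7 other named genes near 0. With 1 library left out, Csf1r ranged from −0.16 to 0.087, Bpifa1 from −0.091 to 0.41, Muc5b from −0.23 to 0.12, Cebpb from −0.19 to 0.32, Mmp9 from −0.092 to 0.38, Krt5 from −0.084 to 0.19 and Ager from −0.095 to 0.80. Csf1r had 0.019 with column totals and 0.077 and 0.096 with RPKM and pseudocounts of 1 and 0.1, where Muc5b had 0.056 and 0.057. Of the other named genes, Igll1 lost its call in 6 alternatives, and Ncf1, Hba-a2, Hbb-bs, Epx, Bglap, Cxcr4 and Tlr4 passed in at least 1, the last pair without a filter, with DESeq2 and with the likelihood ratio test. The cause was not tested. Depth limits Ctsg and Fcnb, at 0 counts in control 6, and a level of 3 counts reflects counting error alone.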
